A study of Arabidopsis thaliana with 8 samples.

Results

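nad7 is the mitochondrial gene whose mRNA the labels name as the translation target affected in the mtl1 mutant of Arabidopsis thaliana. It was followed through its single entry among 33 genes in a table of ribosome footprints, and through the 31 of 434 listed editing sites that carry its name, 1 of them before the start codon. Footprints were counted in flowers of 3 genotypes with 2 libraries (A and B) each: mtl1 and mtsf1, both labelled as mutants of a PPR protein gene in the Col-0 background, and wild type Col-0. Editing was read in 2 RNA-seq libraries of Col-0 flowers.

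The labels tie mtsf1 to the stability of another mRNA, nad4, so it served as a second mutant with a different target. They name no allele. Nor do they tie A and B to different plants, so the p-values rest on the spread of libraries that may be technical duplicates. All plants grew for 10 to 12 weeks in long days, and the flowers of all genotypes were taken at the same time. The footprint libraries are labelled as mitochondrial, although the protocol starts from ground flowers. The table holds mitochondrial genes only, so the labelled tissue could not be checked against marker genes.

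Complex I is the entry point of electrons from NADH into the respiratory chain, and in plants some of its subunits are still made on mitochondrial ribosomes. A matrix arm takes up the electrons and a membrane arm pumps protons. nad7 encodes a matrix arm subunit that helps form the quinone-binding region. PPR (pentatricopeptide repeat) proteins are nuclear-encoded proteins that bind single organellar RNAs and steer their translation, stability, splicing or editing. Plant mitochondrial mRNAs must also be edited, by turning chosen cytidines into uridines, which sequencing reads as C-to-T changes.

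In the TAIR10.1 annotation nad7 lies on the minus strand of the mitochondrial chromosome (MT) in 5 exons between positions 239250 and 245330. The exons hold 143, 69, 467, 244 and 262 bases, 1185 in all, and the introns between them 964, 1063, 1053 and 1816 bases. A 5′ untranslated region of 375 bases is annotated in front of the start codon, from 245331 to 245705. The 31 sites fall 1 before the start codon and 4, 2, 8, 7 and 9 in exons 1 to 5. Of the 30 coding sites, 30 are also marked as edited in that annotation, while the site before the start codon is not. The sequences around the 6 sites on which the editing results turn are given here as deposited, 26 letters each, 5′ to 3′. The capital T is the edited base, which the genome holds as C. Other edited bases in a window are also written as T by the authors.
39 bases before the start codon: agtggtattggacaagatctTaggga
Coding position 24: acgactaggaaaaggcaaatTaaaaa
Coding position 679: gtggtgtaatgttaagaggtTcaggg
Coding position 789: tgctatgatcgttactgtatTcgtat
Coding position 795: gatcgttactgtattcgtatTgaaga
Coding position 1050: agtaatggaagcaatcgtccTtaccg

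nad7 footprints were almost lost in mtl1 and were not detectably changed in mtsf1. The normalized footprint count of nad7 was 460 and 394 in the mtl1 libraries, 7839 and 6273 in the mtsf1 libraries, and 8132 and 6785 in the Col-0 libraries. The mtl1 libraries lay far below every other library, while the mtsf1 and Col-0 libraries overlapped. Groups of 2 libraries often do not overlap: 75.8% of the 33 genes showed none for mtl1 against Col-0, 75.8% for mtsf1 against Col-0 and 66.7% for mtl1 against mtsf1. Against the Col-0 mean, the nad7 count stood at 6.17% and 5.28% in mtl1 A and B, and at 105.1% and 84.1% in mtsf1 A and B. The replicates of a genotype differed much less than this, by a factor of 1.17 between A and B in mtl1, 1.25 in mtsf1 and 1.20 in Col-0.

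On the scale of log2(value + 1), nad7 fell by 4.12 in mtl1 relative to Col-0 (standard error 0.23), which is 17.4-fold with a 95% interval from 12.6 to 24.0. The limma adjusted p was 8.5e-31, in a comparison that called 33.3% of the genes. limma gave the genes 1 common variance here. With the variance of nad7 alone, the limma adjusted p was 0.0073 and nad7 was the only gene called. Among the 33 genes nad7 had the lowest fold change in mtl1, with atp6-1, a copy of an ATP synthase subunit gene, next at -1.20. With each library left out in turn the nad7 change ranged from -4.25 to -3.99 and was called all 6 times. No mRNA levels of the mutants were used here, so fewer nad7 mRNAs and fewer ribosomes per mRNA cannot be told apart.

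In mtsf1 the nad7 value differed from Col-0 by -0.08 on the log2 scale (limma adjusted p = 0.823), in a comparison that called 48.5% of the genes. The 95% interval ran from 1.46-fold lower to 1.30-fold higher, so a change of either sign within that range is not excluded with 2 libraries each. The deposited totals of the mtsf1 libraries (227755 and 216316) were lower than those of Col-0 (290301 and 270243). Scaled to equal totals, nad7 lay at 0.25 in mtsf1, and the median over all genes moved by a similar amount, to 0.36 from 0.03. mtl1 set directly against mtsf1, where the shared Col-0 libraries drop out, gave a nad7 log2 fold change of -4.04 (standard error 0.23, limma adjusted p = 2.0e-30). The interval of that difference was 11.9-fold to 22.7-fold lower in mtl1, and of all genes 24.2% were called, 15.2% lower and 9.09% higher in mtl1.

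**Figure D1:**
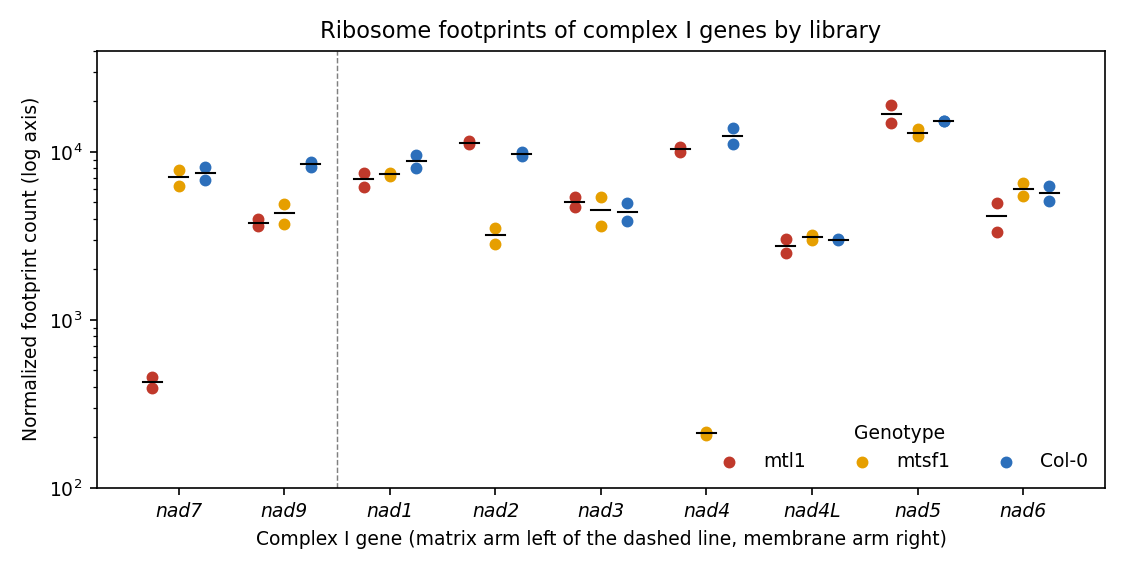
Normalized footprint count (log axis) of the 9 complex I genes in the 2 libraries of mtl1, mtsf1 and Col-0, with a bar at each mean. nad7 of mtl1 stands alone at 460 and 394, while its mtsf1 and Col-0 libraries lie between 6273 and 8132.

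nad9 encodes the other matrix arm subunit among the 9 complex I genes of the table, and it fell in both mutants. It had 3978 and 3597 normalized counts in mtl1, 4923 and 3746 in mtsf1, and 8180 and 8716 in Col-0, so that neither mutant overlapped the wild type. Its log2 fold change was -1.16 in mtl1 (limma adjusted p = 3.3e-05) and -0.98 in mtsf1 (limma adjusted p = 0.00018). Scaled to equal totals, nad9 lay at -1.06 in mtl1 (limma adjusted p = 3.7e-05) and -0.64 in mtsf1 (limma adjusted p = 0.0085). Both comparisons use the same Col-0 libraries. With the variance of nad9 alone, the limma adjusted p was 0.0779 in mtl1 and 0.0648 in mtsf1, past the threshold of 0.05 in neither. A difference between mtl1 and mtsf1 was not detectable for nad9 (log2 fold change -0.18, limma adjusted p = 0.538).

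None of the 7 membrane arm genes passed the test in mtl1, and their log2 fold changes lay between -0.48 and 0.22. nad1 (-0.36), which encodes the subunit next to the matrix arm, nad4 (-0.26), nad4L (-0.13) and nad6 (-0.48) had values below 0. Those of nad2 (0.22), nad3 (0.21) and nad5 (0.13) lay above 0. Leaving out 1 library changed the call or the sign of 3 of these genes: without mtl1 B, nad6 passed at -0.77 (limma adjusted p = 0.0404) and nad4L lay at 0.015, and without mtl1 A nad5 lay at -0.057. Over the whole list of 9 genes, 2 fell, none rose and 7 did not pass in mtl1, with a median of -0.26 beside -0.13 over the 33 genes. Of all genes, 18.2% were called lower and 15.2% higher in mtl1, so the count of complex I genes called was near that of the table.

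In mtsf1 the complex I genes called were others than nad7. nad4, the target named in the labels, had 216 and 207 normalized counts in mtsf1, against 13818 and 11147 in Col-0, and fell by 5.87 on the log2 scale (limma adjusted p = 3.3e-43). nad2 fell by 1.62 (limma adjusted p = 4.6e-09), and lay at -1.29 (limma adjusted p = 2.2e-07) after scaling to equal totals. With nad9, 3 of the 9 genes fell, none rose and 6 did not pass, where 21.2% of all genes were called lower and 27.3% higher (7 and 9 genes, or 7 and 14 after scaling to equal totals). nad1 (-0.26), nad3 (0.02), nad4L (0.05), nad5 (-0.24) and nad6 (0.08) did not pass, like nad7, and nad1 and nad5 lay above 0 (0.074 and 0.10) after scaling to equal totals, and nad3 below 0 (-0.0051) after median-ratio scaling. nad4 in turn had 10044 and 10721 normalized counts in mtl1. The loss of footprints in each mutant was thus largest on the gene its label names.

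**Figure D2:**
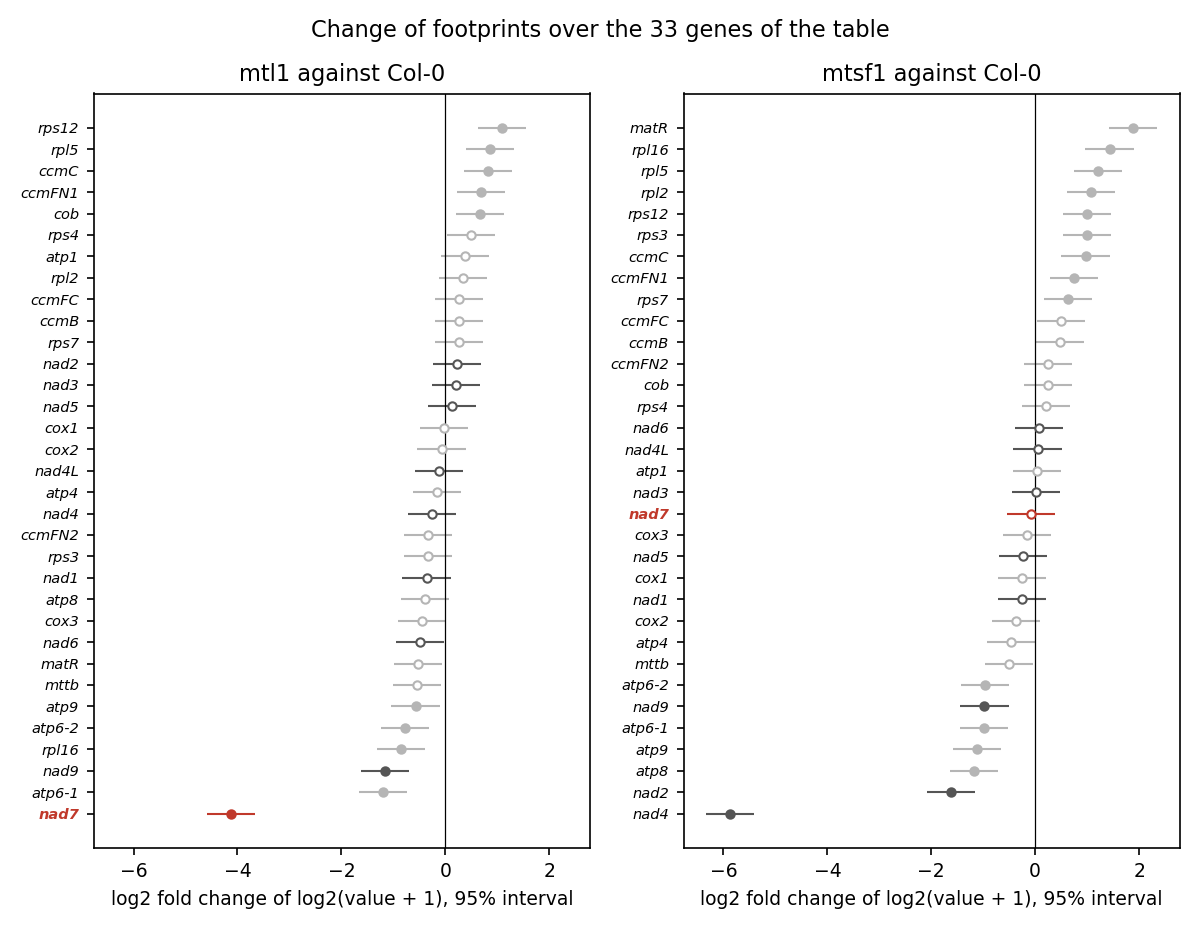
Log2 fold change with 95% interval of each of the 33 genes in mtl1 against Col-0 (left) and mtsf1 against Col-0 (right). nad7 is red, other complex I genes dark grey, and filled points passed the limma test at an adjusted p below 0.05; nad7 is the lowest gene in mtl1 (-4.12) and lies near 0 in mtsf1 (-0.08).

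As a share of the complex I footprints in a library, nad7 took 0.691% ± 0.0524 in mtl1, 14.4% ± 1.89 in mtsf1 and 9.87% ± 0.831 in Col-0 (SD, n = 2 each). The mtsf1 share contains the lower counts of nad4, nad2 and nad9 in the same sum. Of the whole table nad7 took 0.163% ± 0.0200 in mtl1, 3.17% ± 0.383 in mtsf1 and 2.66% ± 0.205 in Col-0. Per kilobase of coding length, nad7 had 360 ± 39.4 normalized counts in mtl1, 5954 ± 934 in mtsf1 and 6294 ± 804 in Col-0 (SD, n = 2 each). Ordered by this level among 31 genes, without the atp6 copies, nad7 was 29th in mtl1, 15th in mtsf1 and 17th in Col-0.

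In Col-0 nad2 stood next above nad7 at 6637 ± 242 per kilobase, a gap within the spread of nad7. rps12, a ribosomal protein gene, stood next below at 2022 ± 301, beyond that spread. In mtl1 the neighbours of nad7 were the ribosomal protein genes rps3 (449.7 ± 30.04) above and rpl16 (351 ± 90.4) below, and nad7 and rpl16 differed by less than their spread. rps3 and rpl16 overlap in the genome, so reads could have been shared between them and their levels are uncertain. The nad7 level in mtl1 was thus like that of ribosomal protein genes with few footprints, and it was not at 0. How much of this remaining count is background was not tested.

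The genes whose log2 values followed nad7 most closely over the 6 libraries were rpl16 (Pearson r = 0.76), cox3, a subunit gene of cytochrome c oxidase (0.76), and nad6 (0.74). In all 3 the mtl1 libraries were the lowest of the 6. rpl16 had 224 and 155 normalized counts in mtl1, 1126 and 731 in mtsf1, and 382 and 295 in Col-0. nad6 had 3323 and 4965 in mtl1, 5432 and 6553 in mtsf1, and 6297 and 5094 in Col-0. cox3 had 17876 and 18047 normalized counts in mtl1, 21204 and 22760 in mtsf1, and 21300 and 28300 in Col-0. Over the 4 libraries without mtl1 the r fell to 0.06, -0.55 and -0.11, so the likeness rests on the mtl1 libraries.

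Editing of nad7 was next measured in the Col-0 RNA-seq libraries, as T reads over T plus C reads. nad7 has the third most listed sites of 29 genes, together with nad2. In all, 25 of the 31 sites had at least 20 such reads in both libraries, and 6 did not. Over the 25 sites the mean level was 89.2% ± 0.582 (SD of the library means, n = 2) and the median 99.8%, beside a mean of 89.0% ± 0.0128 and a median of 99.9% over 201 sites of other genes. In nad7 21 of 25 sites (84.0%) were edited at 90% or more, near the 86.3% of all 226 sites with enough reads. The 4 sites below 90% were the site before the start codon and 3 sites that leave the amino acid as it is.

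**Figure D3:**
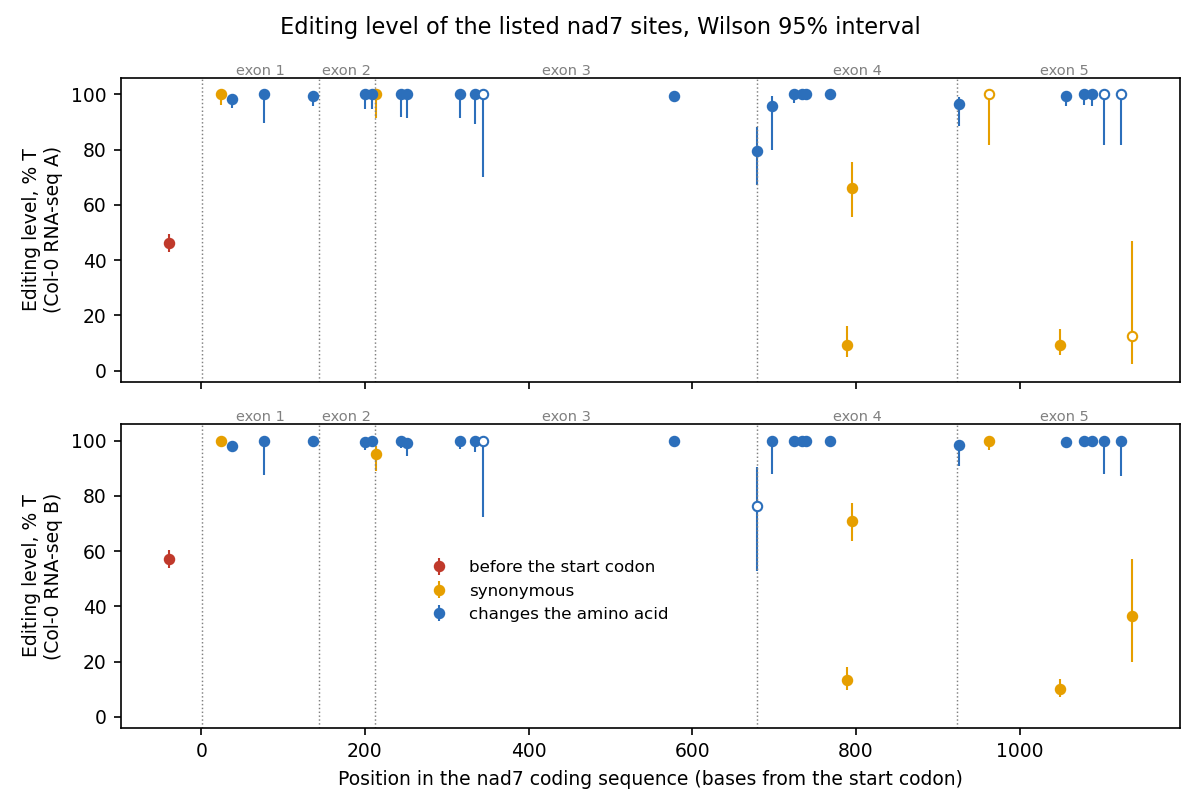
Editing level (percent T reads, with Wilson 95% interval) of the 31 listed nad7 sites by position from the start codon, in Col-0 RNA-seq A (top) and B (bottom). Red is the site before the start codon, orange synonymous sites, blue sites that change the amino acid, and open points have fewer than 20 reads; the blue sites lie near 100% except at coding position 679, while the orange sites run from 9.17% to 100% in A and the red site lies at 46.1% in A and 57.1% in B.

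Sites that change the encoded amino acid were almost fully edited. nad7 has 23 of them, 12 from serine to leucine, 3 from serine to phenylalanine, 3 from arginine to cysteine, 2 from histidine to tyrosine and 1 each from leucine to phenylalanine, proline to leucine and proline to serine. Most of these changes replace a polar residue by a hydrophobic one. The 19 with enough reads had a mean level of 99.6% ± 0.201 (SD, n = 2), and the lowest, at coding position 926, reached 97.4%. In 11 of the 19, neither library held a single unedited read. In other genes the 168 such sites had a mean of 98.2% ± 0.126, with 97.6% of them at 90% or more.

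The 7 synonymous sites of nad7, all at the third base of a codon, spread over nearly the whole scale. Coding position 24, an isoleucine codon whose recognition the reference annotation ascribes to the PPR protein OTP87, was edited in 95 of 95 reads in A and 372 of 373 in B. Coding position 213, the first base of exon 3, stood at 100% in A and 95.1% in B. Coding position 963 showed no C among 17 reads in A and 108 in B. These 3 sites were edited at 95.1% or more in each library, the last of them on few reads in A.

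The other synonymous sites were edited in part. Coding position 795 was edited at 66.3% in A (Wilson 95% interval 55.6 to 75.5) and 71.0% in B (63.8 to 77.3). Coding position 789, a short way upstream, reached only 9.17% in A (5.06 to 16.1) and 13.4% in B (9.76 to 18.0). Both sit in exon 4, as the last base of isoleucine codons 265 and 263, at 241456 and 241462 of MT, and both follow a T. Coding position 1050, a proline codon in exon 5 at 239385 of MT, was edited at 9.38% in A (5.76 to 14.9) and 9.88% in B (7.12 to 13.6). Coding position 1137 had 1 T of 8 reads in A and 8 T of 22 in B, too few to place it. At each of these 4 sites the intervals of the libraries overlapped.

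For the 5 synonymous sites with enough reads the mean was 57.4% ± 0.603 (SD, n = 2) and 2 of 5 reached 90%. In other genes 8 of 30 did, at a mean of 37.9% ± 0.746. Sites of a gene are not replicates, so no test was made between these groups of sites.

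The site 39 bases before the start codon, at 245369 of MT inside the 5′ untranslated region, was edited in part and unequally in the libraries. It was edited in 442 of 958 reads in A, 46.1% (43.0 to 49.3), and in 504 of 883 reads in B, 57.1% (53.8 to 60.3). The intervals did not overlap, and the levels differed by 10.9 percentage points (Fisher's exact test adjusted over 226 sites, p = 0.00068). It was the only site called among the 226, or 0.442% of them, and the next smallest adjusted p was 0.249. None of the 24 coding sites of nad7 with enough reads passed the test (exact adjusted p = 1.0 for each, smallest unadjusted p = 0.253). The largest difference there was 4.90 percentage points. Most of these coding sites had little room to differ, at a median level of 99.8%. Coding position 795, edited at 66.3% in A and 71.0% in B, had only 83 and 169 reads. Whether the difference is particular to the site before the start codon was thus not decided. The test compares these libraries, and reads without molecular identifiers are not independent molecules, so it and all intervals cover counting error only.

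This site was also the most deeply read of nad7. Its 960 reads in A and 885 in B were 14.0 and 5.21 times the median of the coding sites. At most coding sites of nad7 library B held more reads than A, with a median ratio of 2.44 over those with enough reads. B held fewer than A at coding positions 77, 679 and 926 (ratios 0.82, 0.31 and 0.95). At the site before the start codon the ratio was 0.92. Of the 226 sites with enough reads, 20 had a lower ratio. The part of this depth difference in the change of level was not tested. The other 28 genes together list 4 sites before a coding start, none with 20 reads in both libraries, so nad7 holds the only such site that could be measured.

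Reads over the coding sites varied from site to site. They ranged from 8 to 231 in A (median 68.5) and from 10 to 597 in B (median 170). By exon the median number of reads was 116, 68.5, 42, 114 and 60 in A and 388.5, 171.5, 101, 262 and 108 in B, for exons 1 to 5. The fewest reads lay at coding position 344 in B (10, all T) and at coding position 1137 in A (8). By median reads per site, nad7 ranked 10 of 29 genes in A and 5 in B. This depth is a rough guide to mRNA level only, since it was read at listed sites.

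**Figure D4:**
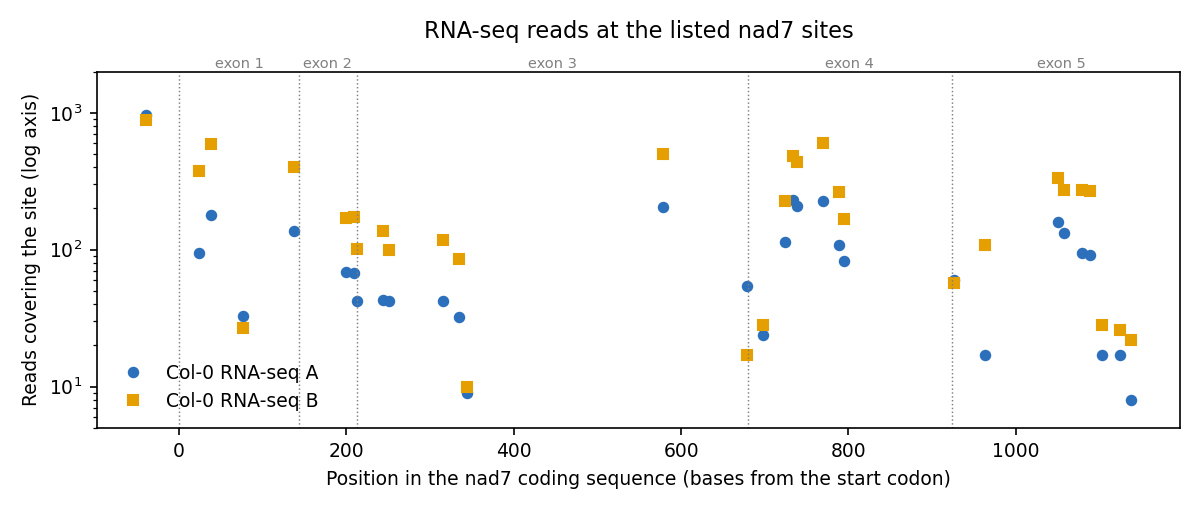
Number of RNA-seq reads (log axis) covering each listed nad7 site by position from the start codon, in Col-0 RNA-seq A (circles) and B (squares), with dotted lines at exon starts. Reads are highest before the start codon (960 and 885), and B lies below A there and at 3 coding sites.

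3 coding sites lie within 3 bases of an exon junction. Coding position 679, the last base of exon 3, was the only site changing an amino acid with clearly incomplete editing. It had 43 T of 54 reads in A, 79.6% (67.1 to 88.2), and 13 T of 17 reads in B, 76.5% (52.7 to 90.4). Its codon changes from proline to serine. The other junction sites, coding positions 213 and 926, stood at 97.5% ± 3.47 and 97.5% ± 1.12 (SD, n = 2). Reads that come from unspliced RNA were not separated here, and their part in the value at position 679 was not tested.

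Most nad7 sites also occur in the nucleus of Col-0 as an unedited copy of mitochondrial DNA. A genomic window of 51 bases around the site was found once in MT for all 31 sites, and once more on chromosome 2 for 28 of them. Coding positions 1050, 1057 and 1079 had no such exact copy outside MT. Of these, position 1050 was edited at under 10% in both libraries, and positions 1057 and 1079 at over 99%. A window without an exact copy may still have an inexact one, so nothing is concluded from these levels. For the sites with a copy, including the one before the start codon and position 789, reads from nuclear copies were not separated and their part was not tested.

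The deposited tables also give a reference level per site, and no source used here states where it comes from. At 20 of the 25 nad7 sites with enough reads, the mean of the libraries lay within 5 percentage points of it. Coding positions 789 and 795 lay below it, at 11.3% ± 2.96 against 27% and at 68.6% ± 3.35 against 86% (SD, n = 2). Coding position 1050 stood at 9.63% ± 0.357 against 19%. Coding position 38, a serine codon changed to leucine, lay above it at 98.1% ± 0.267 against 88%. The reference has a listed spread of its own, of 8, 5, 4 and 3 points at positions 789, 795, 1050 and 38. The site before the start codon stood at 51.6% ± 7.74 against 47%, within its own spread. Of the shallow sites, coding position 679 had a reference of 100% and coding position 1137 of 79%, both above what was read here. Of the 25 nad7 sites with enough reads, 2 lay 10 points or more below the reference and 1 lay as far above it. Of the 201 sites of other genes, 12 lay that far below and 31 that far above.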

How the data were processed

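Ribo-seq and RNA-seq libraries were grouped by their titles. Per the submitters' processing notes, FastQC, cutadapt 1.9.1, Bowtie 1.1.2 and, for Ribo-seq, featureCounts 1.5.0-p2 were used. No source used here states the build, annotation, strand handling or editing caller. The deposited footprint score is a normalized read count rounded by the authors, by a method that no source used here states, so the Ribo-seq depth is unknown. The deposited editing tables give the count of reads with each base and the coverage per site, and the authors' editing fraction, which was recomputed here as T over T plus C. At the listed sites the RNA-seq libraries hold 46892 reads (A) and 100704 (B).

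limma 3.58.1 (R 4.3.3) was fitted on log2(value + 1) over all 33 genes and 6 Ribo-seq libraries, and p-values were adjusted by Benjamini-Hochberg (threshold 0.05). limma estimated an infinite prior, so all genes shared 1 variance with 99 degrees of freedom. Two-sided exact permutation of 2 against 2 libraries cannot go below p = 0.333. Fisher's exact test compared the RNA-seq libraries at sites with at least 20 reads in both; intervals are Wilson 95%. Both steps were tested on simulated data. Site sequences were matched to TAIR10.1 (the authors' build may differ), 30 of 31 nad7 sites without mismatch. Codons were read from its annotation. Python 3.11.15, scipy 1.17.1 and statsmodels 0.14.6 were used.

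nad7, the gene list and the tests were chosen with earlier results of these data known. Singly named were nad7, all complex I genes, the neighbours of nad7 in level, its 3 likest genes, and sites before the start, under 90%, synonymous, of extreme coverage or differing between libraries. Positions 926, 38, 1057 and 1079, atp6-1 and the windows around sites were chosen after their values were seen.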

Additional observations from a re-analysis of the deposited data

How the results depend on the processing

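The nad7 loss in mtl1, against Col-0 and against mtsf1, kept its direction and stayed past the threshold under pseudocounts of 0.1 and 10, both other scalings, the filter at 500, a variance trend, each gene's own variance, the fit of the compared genotypes alone, the replicate block and each library left out (-4.25 to -3.99 and -4.20 to -3.88). The sign of nad7 in mtsf1 is not fixed by these data: it was 0.25 after scaling to equal totals (limma adjusted p = 0.320) and ranged from -0.24 to 0.078 with a library left out, never past the threshold. With own variances 1 complex I gene was called in mtl1 in place of 2, and 2 in mtsf1 in place of 3. Of all genes, 1 was called in place of 11 in mtl1 and 4 in place of 16 in mtsf1. Scaled to equal totals, mtl1 against mtsf1 had 13 genes called, 3 higher and 10 lower, in place of 8, 3 higher and 5 lower. A genotype left with 1 library was taken to vary like the others. With the replicate block nad7 stayed at -4.12 in mtl1 (limma adjusted p = 3.8e-25) and no complex I call changed. The letters A and B are not tied to a batch in the labels, and the A minus B differences correlated across genes at 0.07, 0.00 and -0.14 between genotypes.

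Other complex I genes changed sign while not past the threshold: in mtsf1 nad1 (0.074) and nad5 (0.10) after scaling to equal totals, nad3 (-0.0051) after median-ratio scaling, and with a library left out nad3 (-0.27 to 0.30) and nad6 (-0.078 to 0.23); in mtl1 nad5 (-0.057 to 0.31) and nad4L (-0.27 to 0.015). nad6 passed in mtl1 without mtl1 B (-0.77).

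Not divided by length, nad7 ranked 28 in mtl1, 10 in mtsf1 and 14 in Col-0. Per kilobase it ranked 16 to 17 in Col-0 by single libraries. Its mean editing level was 89.9%, 85.3% and 79.0% at minimums of 10, 50 and 100 reads, 90.8% over coding sites, and 88.4% to 88.9% by single libraries. At 100 reads 8 of 11 sites were edited at 90% or more. 1 site differed between libraries at every minimum. Depth limits the 6 nad7 sites under 20 reads. The sites averaged differ between these settings. Minimums of 10, 50 and 100 reads kept 29, 18 and 11 sites, in place of 25. Of these 24, 14 and 8 were edited at 90% or more, in place of 21. The single-library means cover 26 sites in A and 29 in B. The cause of these shifts was not tested further.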

Other observations

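The annotation marks 36 edited positions in nad7, of which 6 are not among the 31 listed sites, and all 6 are annotated as edited at minor frequency. Of the listed sites, coding positions 789 and 1050 carry the same remark, and they were the lowest coding sites with enough reads (12.1% and 9.72% over both libraries). Of the 31 sites, 26 follow a T, 4 follow a C and 1, the synonymous site at coding position 213, follows an A. Those after T with enough reads had a mean level of 92.0% ± 0.803 (SD of the library means, n = 2) in nad7 and 87.2% ± 0.0662 in other genes. By codon position, the mean was 99.9% ± 0.0454 over the 6 sites at the first base, 99.4% ± 0.272 over the 13 at the middle base and 57.4% ± 0.603 over the 5 at the last base.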
